A study of Mus musculus with 12 samples.

Results

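The 41 genes described here are type I interferon-stimulated antiviral genes, taken by gene symbol from a table of 54532 genes measured in mouse bone marrow-derived macrophages. All 41 were found in the table, and all 41 were among the 13800 genes kept by the filter on low counts. For description they were sorted by role into 4 IFIT RNA-binding proteins, 2 MX GTPases, 6 members of the OAS family, 4 genes of the ISG15 system, 6 nucleic acid sensors, 4 enzymes of nucleotides and RNA, 6 STAT and nuclear factors, and 9 restriction factors and other effectors.

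The study examined integrin α9, encoded by Itga9, in macrophages in the setting of periodontitis. Marrow was taken from 8-week-old male mice and cultured with M-CSF at 50 ng/mL, which drives marrow precursors to become macrophages. The mice were of the genotype Itga9-Lyz2-cHet or Itga9-Lyz2-cKO, called cHet and cKO below, and the strain was not given. In both genotypes the name ties the Itga9 allele to Lyz2, a gene active in macrophages, monocytes and neutrophils, so the cHet cells were a conditional heterozygote and not a wild type. Cells of each genotype were left as controls or were given an agent labelled Pg for 2 hours at a multiplicity of infection written 1:20. Each of the 4 groups held 3 libraries of poly-A RNA. Whether the 3 came from separate mice or cultures was not stated, so p-values reflect how these libraries varied, and that variation may be technical.

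Type I interferons are secreted by cells that sense microbial nucleic acid or cell wall products, and they act through the receptor IFNAR1 and IFNAR2. The receptor's kinases activate STAT proteins, STAT2 among them, which join IRF9 in the factor ISGF3. ISGF3 binds a DNA element called the interferon-stimulated response element (ISRE) in front of genes whose products block viral RNA, capsids and replication. Macrophages hold many of these transcripts at a resting level and raise them when interferon is present.

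Sequences before the gene starts are shown for 5 members that were lower after Pg in at least 1 genotype and for Trim25, the member that rose in both. The ISRE core was searched on both strands as GAAA, any 2 bases and GAAA again, in RefSeq windows (build GRCm38.p6, which is mm10) running from 250 bases before to 50 bases after a gene start. Windows were matched by symbol for 30 of the 41 members. Capitals mark a match, which reads TTTC, 2 bases and TTTC where it lies on the other strand. The printed stretches are the part before the start that overlaps no annotated exon: Ifit1 (chr19:34640744-34640870, plus strand), Ifit3 (chr19:34583279-34583528, plus strand), Ifit3b (chr19:34607707-34607956, plus strand), Stat2 (chr10:128270248-128270497, plus strand), Isg15 (chr4:156200819-156201068, minus strand) and Trim25 (chr11:88999153-88999375, plus strand).
Ifit1: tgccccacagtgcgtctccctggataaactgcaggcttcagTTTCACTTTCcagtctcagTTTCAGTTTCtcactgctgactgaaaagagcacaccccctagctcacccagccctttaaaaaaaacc
Ifit3: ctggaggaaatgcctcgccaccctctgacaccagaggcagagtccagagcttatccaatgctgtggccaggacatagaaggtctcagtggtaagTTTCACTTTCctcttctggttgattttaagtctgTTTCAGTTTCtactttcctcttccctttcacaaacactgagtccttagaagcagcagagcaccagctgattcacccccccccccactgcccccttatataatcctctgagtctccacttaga
Ifit3b: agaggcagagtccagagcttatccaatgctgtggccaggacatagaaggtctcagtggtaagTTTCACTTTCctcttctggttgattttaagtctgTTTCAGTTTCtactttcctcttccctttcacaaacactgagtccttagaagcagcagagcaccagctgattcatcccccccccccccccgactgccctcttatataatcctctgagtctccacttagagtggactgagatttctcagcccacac
Stat2: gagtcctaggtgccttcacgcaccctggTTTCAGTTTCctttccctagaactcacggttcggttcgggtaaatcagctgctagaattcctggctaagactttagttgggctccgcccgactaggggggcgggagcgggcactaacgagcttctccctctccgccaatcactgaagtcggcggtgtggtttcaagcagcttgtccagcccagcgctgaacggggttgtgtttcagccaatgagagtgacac
Isg15: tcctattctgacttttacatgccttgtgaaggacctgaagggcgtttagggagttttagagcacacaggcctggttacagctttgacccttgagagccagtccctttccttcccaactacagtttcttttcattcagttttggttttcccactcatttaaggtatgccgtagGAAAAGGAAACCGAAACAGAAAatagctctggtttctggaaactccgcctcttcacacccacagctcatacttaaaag
Trim25: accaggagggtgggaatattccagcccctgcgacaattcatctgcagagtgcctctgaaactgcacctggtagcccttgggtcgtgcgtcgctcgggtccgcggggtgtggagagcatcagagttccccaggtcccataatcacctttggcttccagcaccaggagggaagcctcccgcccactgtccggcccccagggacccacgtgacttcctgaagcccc

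The core occurred in 16 of the 30 members with a window (53.3%), against 3.99% of all 27025 genes with a window. Ifit1, Ifit3 and Ifit3b held 2 matches each, Isg15 held 3 that overlap one another, and Stat2 held 1. The windows of Ifit3 and Ifit3b shared an identical run of 169 bases that contains both of their matches. The window of Trim25 held none. The STAT site known as GAS, searched on both strands as TTCNNNGAA, matched in 7 of the 30 (23.3%), against 9.55% of genes. An NF-kB site, searched on both strands as GGGNN followed by TTNCC, matched in 1 of the 30, Ifit1, against 5.48% of genes. Among the 16 members with an ISRE core, 13 were lower after Pg in cKO, and among the 14 without, 9 were. The median log2 change in cKO was -0.68 for the first and -0.96 for the second, and the difference was not tested. A match is a description of the letters and not evidence of a bound site.

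Library totals ran from 14527674 to 16793803 counts. Itga9 stood at 23.1 ± 8.06 CPM (counts scaled to a common library size, mean ± SD, n = 3) in cHet controls and 28.9 ± 8.27 CPM after Pg, against 7.98 ± 3.09 and 11.0 ± 2.91 CPM in cKO, so the libraries followed their genotype labels and cKO kept some Itga9 reads. Macrophage markers summed to 7126 to 8780 CPM over the 12 libraries. The libraries also fell into 2 sets by Itgax, a dendritic cell and macrophage integrin, that cut across the groups. It lay at 102.7 to 137.4 CPM in 6 libraries (cHet control 1, cHet Pg 2 and 3, cKO control 1, cKO Pg 1 and 2) and at 36.2 to 59.3 CPM in the other 6. In bulk RNA, fewer cells of a type and less RNA per cell cannot be told apart.

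**Figure D1:**
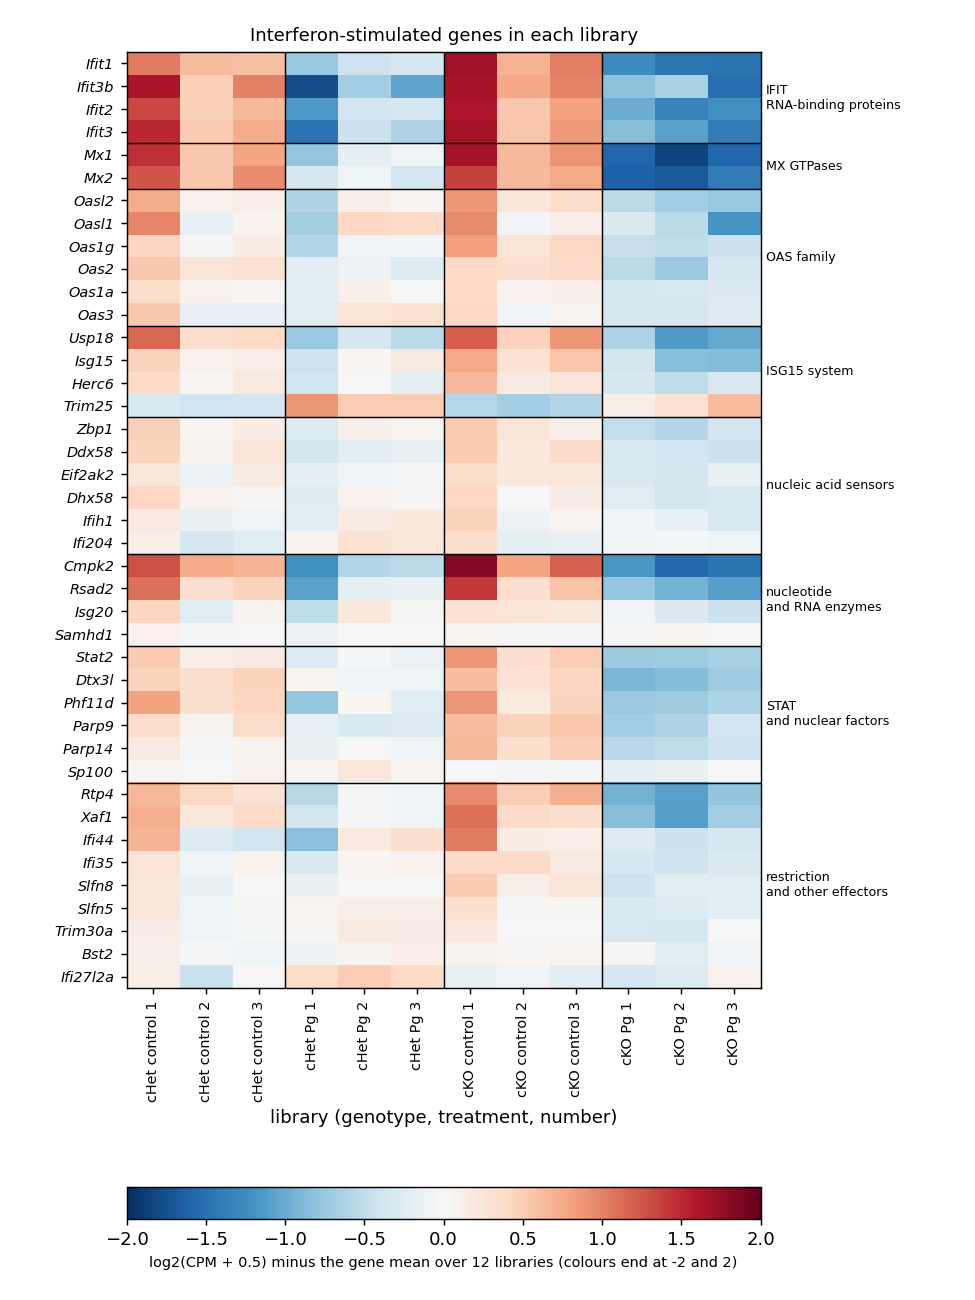
Each row is 1 of the 41 genes, sorted by role, and each column 1 of the 12 libraries. Colour gives log2(CPM + 0.5) minus the gene's mean over the 12 libraries, ending at -2 and 2. The IFIT, MX, Cmpk2 and Rsad2 rows are red in the controls of both genotypes and blue after Pg, Trim25 runs the other way, and the number 1 control column is the reddest of its group in both genotypes.

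In cHet macrophages, 2 hours of Pg lowered 17 of the 41 genes and raised 2, Trim25 and Ifi27l2a, while 22 did not pass the test (edgeR quasi-likelihood test, adjusted p below 0.05 over all 13800 genes). Over all genes tested, 18.0% were lower and 18.0% higher in the same comparison, 36.1% in all. The median log2 change of the members was -0.29, against -0.01 for all genes. Of the 17, 9 fell by at least 2-fold, and these were the 4 IFIT genes, both MX genes, Rsad2, Cmpk2 and Usp18. In cKO macrophages Pg lowered 31 of the 41 and raised Trim25 alone, and 9 did not pass the test. There the shares over all genes were 17.1% lower and 16.9% higher, 34.0% in all, and the median of the members was -0.90. Of the 31, 18 fell by at least 2-fold. All 17 genes that fell in cHet fell in cKO too, which is 100% of the cHet list and 54.8% of the cKO list. This overlap was not taken over all genes, so it is not shown to be particular to the members.

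The libraries themselves gave the same picture without a model. After Pg, all 3 cHet libraries lay below all 3 cHet controls for 19 members and above them for 2, where 24.3% and 22.9% of all genes did so. In cKO the Pg libraries lay below the controls for 35 members and above for 1, where 23.1% and 22.0% of all genes did so. Scaling by library size alone, with no correction for composition, moved the median log2 change of all genes from -0.01 to -0.25 in both genotypes. It also moved the share of rises among all called genes from 50.0% to 19.1% in cHet and from 49.7% to 18.7% in cKO. Under that scaling 31 members were lower and 1 higher in cHet, where 48.7% of all genes were called, against 36.1% with the correction. The call for Ifi27l2a was lost there (log2 change 0.26, adjusted p 0.121).

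**Figure D2:**
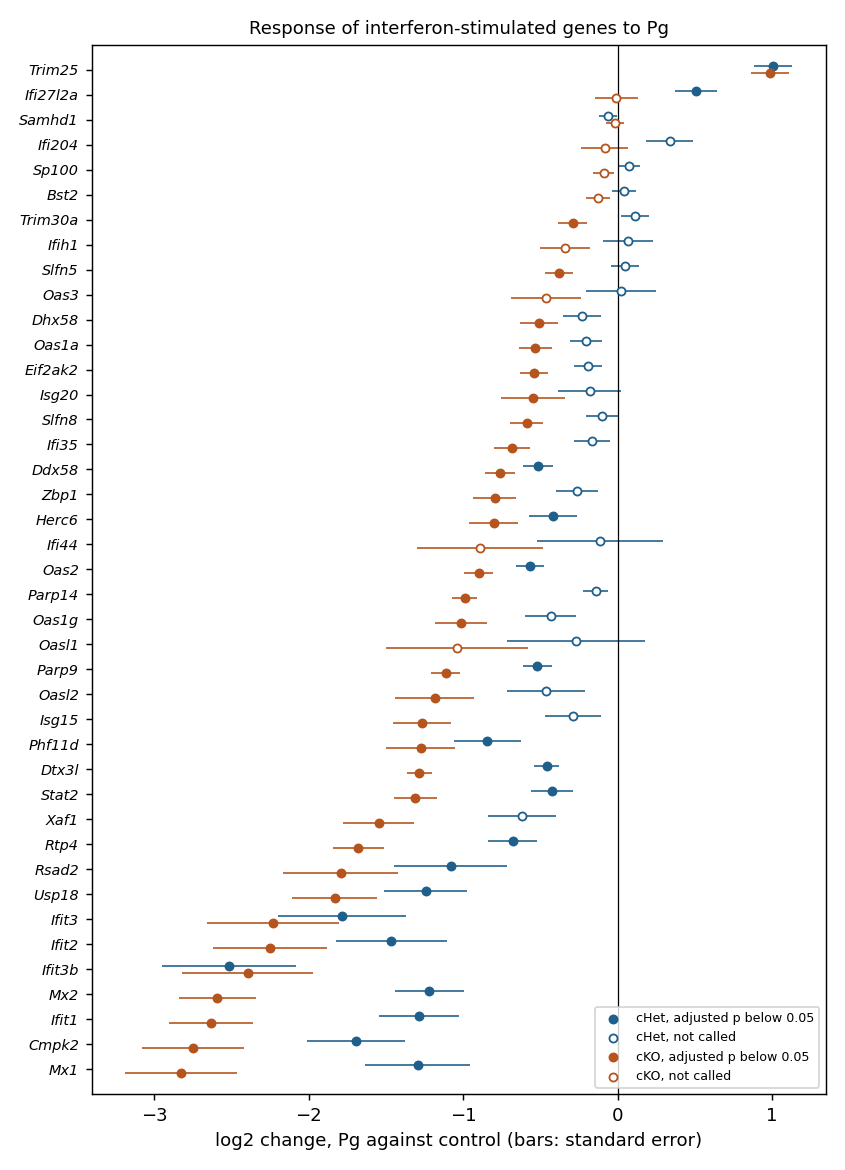
Log2 change after Pg with its standard error for each of the 41 genes, in cHet (blue) and cKO (orange). Filled points passed an adjusted p of 0.05. The points run from -2.83 (Mx1 in cKO) to 1.01 (Trim25 in cHet), and most orange points lie left of the blue point of the same gene.

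The IFIT genes encode a family of antiviral proteins, some of which seize viral RNA by its altered 5′ end, and all 4 fell in both genotypes. They lie in one stretch of chromosome 19 in mm10, with gaps of 7111 to 27469 bases between one member and the next. Their median log2 change was -1.63 in cHet and -2.32 in cKO. Ifit3b (chr19:34607970-34613401) had the steepest fall of any member in cHet. It stood at 14.4, 6.17 and 9.21 CPM in the cHet controls and at 0.914, 2.46 and 1.81 CPM after Pg. In cKO it stood at 14.5, 7.73 and 9.11 CPM in controls and at 2.22, 2.56 and 1.17 CPM after Pg. Every Pg library lay below every control of its genotype, and the cHet and cKO values covered each other. The log2 change was -2.52 ± 0.44 (SE, adjusted p 0.000963) in cHet and -2.40 ± 0.43 (adjusted p 0.00122) in cKO by edgeR. Ifit3b rested on 13 to 36 counts per library after Pg, and reads it shares with its near copy Ifit3 may have been assigned to either. The other 3, Ifit1, Ifit2 and Ifit3, fell by 1.29 to 1.79 in cHet and by 2.23 to 2.63 in cKO on the log2 scale.

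Mx1 and Mx2 belong to the dynamin-like GTPases that trap viral ribonucleoproteins, and both fell in both genotypes, with the steepest fall of any member in cKO for Mx1. The deposited annotation classes Mx2 as a polymorphic pseudogene. The strain was not given, so whether these transcripts make working proteins here is not known. Mx1 (chr16:97447035-97462907) read 311.4, 164.5 and 196.0 CPM in cHet controls and 65.7, 99.5 and 108.6 CPM after Pg. In cKO it read 360.1, 177.6 and 210.6 CPM in controls and 37.1, 31.4 and 37.1 CPM after Pg. The 3 cKO Pg libraries were the lowest of the 12 and lay close together. The log2 change was -1.30 ± 0.34 (adjusted p 0.0167) in cHet and -2.83 ± 0.36 (adjusted p 0.000382) in cKO. The cHet call was lost without cHet control 1 or without cHet Pg 1 (adjusted p 0.0560 to 0.0584).

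Mx2 (chr16:97535308-97560900) read 64.5, 39.1 and 51.9 CPM in cHet controls, and 20.9, 25.1 and 20.9 CPM after Pg. The cKO libraries read 69.8, 42.1 and 45.6 CPM in controls, and 8.34, 7.97 and 9.77 CPM after Pg. The control levels of both genotypes covered each other, while every cKO Pg library lay below every cHet Pg library. The fall was -1.22 ± 0.23 (adjusted p 0.00196) in cHet and -2.59 ± 0.25 (adjusted p 2.39e-05) in cKO. Both MX genes are neighbours on chromosome 16 and resemble each other in sequence, so some reads may have been assigned to the wrong one.

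The OAS enzymes make the messenger 2-5A, which switches on RNase L, and the OASL proteins are their relatives. In cHet 1 of the 6, Oas2, fell, and in cKO 4 of the 6 did, where 18.0% and 17.1% of all genes were lower. The cHet count is near the share of all genes. The median log2 change was -0.35 in cHet and -0.96 in cKO. Oas2 (chr5:120730333-120749853) read 126.9, 103.8 and 108.0 CPM in cHet controls and 74.8, 81.5 and 72.3 CPM after Pg. The cKO values were 114.3, 109.8 and 113.2 CPM in controls and 59.7, 52.1 and 68.9 CPM after Pg. Its libraries did not overlap between control and Pg in either genotype, and its spread was small. The fall was -0.57 ± 0.09 (adjusted p 0.000135) in cHet and -0.90 ± 0.09 (adjusted p 1.17e-06) in cKO. Oas1a, Oas1g and Oasl2 passed the test in cKO alone, with log2 changes there of -0.53 to -1.19. Oas3 and Oasl1 passed in neither, at -0.46 and -1.04 in cKO with standard errors of 0.23 and 0.46.

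Isg15 encodes a ubiquitin-like protein, Usp18 the protease that removes it, and Herc6 and Trim25 ligases linked to it. Usp18 and Herc6 fell in both genotypes, Isg15 passed the test in cKO alone (-1.27 ± 0.19, adjusted p 0.000142, against -0.29 ± 0.18 and 0.246 in cHet), and Trim25 rose in both. Trim25 (chr11:88999376-89020293), which also ubiquitinates the RNA sensor RIG-I, read 273.7, 258.9 and 259.2 CPM in cHet controls and 624.1, 483.2 and 483.3 CPM after Pg. Its cKO levels were 229.2, 209.8 and 226.5 CPM in controls and 370.6, 417.1 and 527.8 CPM after Pg. Every Pg library was above every control. The rise was 1.01 ± 0.12 (adjusted p 3.30e-05) in cHet and 0.98 ± 0.12 (adjusted p 4.32e-05) in cKO. The Herc6 call in cHet (adjusted p 0.0442) was lost on leaving out any 1 of 7 libraries, where adjusted p was 0.0501 to 0.184.

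Of the 6 sensors of foreign nucleic acid, 1 fell in cHet and 4 in cKO, where 18.0% and 17.1% of all genes were lower. The cHet count is near the share of all genes. Ddx58 (chr4:40203773-40239828), which encodes RIG-I, read 97.5, 74.7 and 85.9 CPM in cHet controls and 55.2, 61.0 and 64.2 CPM after Pg. In cKO it read 103.3, 82.6 and 93.8 CPM in controls and 57.6, 54.5 and 52.8 CPM after Pg. The Pg libraries lay below the controls in both genotypes, with falls of -0.52 ± 0.10 (adjusted p 0.000544) and -0.76 ± 0.10 (adjusted p 1.41e-05). Dhx58, Zbp1 and Eif2ak2, which encode LGP2, a sensor of Z-form nucleic acid and the kinase PKR, passed in cKO alone at -0.51 to -0.80. Ifih1, which encodes MDA5, and Ifi204, a DNA sensor, passed in neither, at -0.34 ± 0.16 and -0.08 ± 0.15 in cKO.

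Cmpk2 and Rsad2 are divergent neighbours on chromosome 12, 12751 bases apart, and encode a nucleotide kinase and the enzyme viperin that makes a chain-terminating nucleotide. They fell in both genotypes, Cmpk2 by -1.69 ± 0.32 (adjusted p 0.00311) and -2.75 ± 0.33 (adjusted p 0.000249), and Rsad2 by -1.08 ± 0.36 (adjusted p 0.0475) and -1.79 ± 0.37 (adjusted p 0.00576), cHet first. The Rsad2 call in cHet was lost on leaving out any 1 of 10 libraries (adjusted p 0.0574 to 0.156). Isg20, an exonuclease of RNA, passed in cKO alone at -0.55 ± 0.21 (adjusted p 0.0496) and lost its call on leaving out any 1 of 7 libraries (adjusted p 0.0600 to 0.152). Samhd1, which breaks down deoxynucleotides, read -0.06 ± 0.06 and -0.02 ± 0.06 and passed in neither.

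Stat2, the subunit that gives ISGF3 its transactivating arm, fell in both genotypes. Stat2 (chr10:128270559-128292849) read 108.5, 82.2 and 84.3 CPM in cHet controls and 62.0, 73.9 and 69.0 CPM after Pg. The cKO libraries read 137.8, 95.2 and 107.4 CPM in controls and 44.6, 45.7 and 47.1 CPM after Pg. The cKO Pg libraries lay below all others and close to one another. The fall was -0.43 ± 0.14 (adjusted p 0.0277) in cHet and -1.31 ± 0.14 (adjusted p 1.38e-05) in cKO. The cHet call was lost without cHet control 1, cHet Pg 1 or cHet Pg 3 (adjusted p 0.0681 to 0.103). Phf11d, a nuclear protein gene, fell by -0.84 ± 0.22 in cHet and -1.27 ± 0.22 in cKO, and Sp100, a nuclear body protein gene, passed in neither.

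Parp14, Dtx3l and Parp9 lie within one stretch of chromosome 16. Parp9 and Parp14 are ADP-ribosyltransferases and Dtx3l is the ubiquitin ligase that partners Parp9. Dtx3l (chr16:35926511-35939151) read 161.2, 150.2 and 159.5 CPM in cHet controls and 122.1, 110.3 and 110.3 CPM after Pg. The cKO values were 180.6, 143.9 and 157.6 CPM in controls and 62.1, 64.2 and 71.8 CPM after Pg. The controls covered each other, and after Pg every cKO library lay well below every cHet library. The fall was -0.46 ± 0.08 (adjusted p 0.000263) in cHet and -1.28 ± 0.08 (adjusted p 2.42e-09) in cKO.

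Parp14 (chr16:35832874-35871544) read 525.4, 451.4 and 488.0 CPM in cHet controls and 422.9, 460.0 and 443.4 CPM after Pg. Its cKO levels were 740.1, 580.0 and 652.8 CPM in controls and 317.2, 326.7 and 349.1 CPM after Pg. Its cHet libraries overlapped between control and Pg, its cKO libraries did not, and the order of the genotypes turned over between control and Pg. The log2 change was -0.14 ± 0.08 (adjusted p 0.191) in cHet and -0.99 ± 0.08 (adjusted p 6.44e-08) in cKO. Parp9 (chr16:35938470-35972605) read 74.0, 60.1 and 73.9 CPM in cHet controls and 51.0, 46.3 and 47.8 CPM after Pg. In cKO it read 87.7, 78.6 and 84.3 CPM in controls and 35.2, 36.9 and 43.6 CPM after Pg. It showed the same turn of order with smaller gaps. It fell by -0.52 ± 0.09 (adjusted p 0.000263) and -1.11 ± 0.09 (adjusted p 6.28e-08). Dtx3l and Parp9 overlap by 682 bases on opposite strands, and without a stated strand setting reads from the overlap cannot be told apart.

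**Figure D3:**
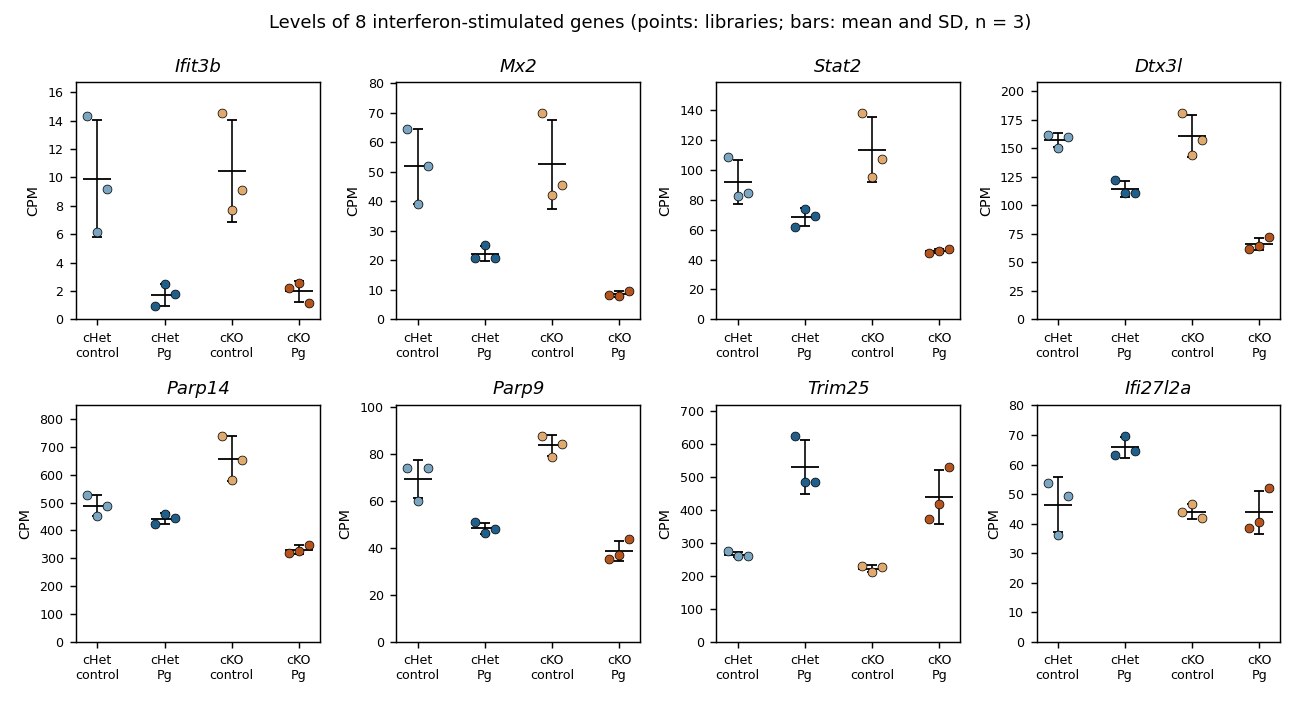
CPM of 8 of the genes in each library (points) with the mean and SD of the 3 libraries of a group (bars), on axes that start at 0. The cKO Pg points lie below the cHet Pg points for Mx2, Stat2, Dtx3l, Parp14 and Parp9, overlap them for Ifit3b and Trim25, and lie below them for Ifi27l2a.

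Among the 9 restriction factors and other effectors, 1 fell and 1 rose in cHet, and 6 fell in cKO. Over all genes, 18.0% fell and 18.0% rose in cHet, and 17.1% fell in cKO. The cHet counts are not above the share of all genes. Rtp4 (chr16:23520291-23614222), a receptor chaperone with antiviral action, read 96.7, 81.1 and 75.0 CPM in cHet controls and 41.3, 59.4 and 57.3 CPM after Pg. The cKO libraries read 117.8, 85.8 and 100.7 CPM in controls and 31.5, 28.4 and 35.2 CPM after Pg. Control and Pg libraries did not overlap in either genotype, at -0.68 ± 0.16 (adjusted p 0.00626) and -1.68 ± 0.16 (adjusted p 1.41e-05). Ifi27l2a (chr12:103442167-103443680), a small interferon-induced membrane protein gene, read 53.9, 36.0 and 49.2 CPM in cHet controls and 63.2, 69.8 and 64.4 CPM after Pg. The cKO values were 43.9, 46.5 and 41.7 CPM in controls and 38.6, 40.6 and 52.2 CPM after Pg. It rose in cHet (0.50 ± 0.14, adjusted p 0.0111), and its cKO libraries overlapped (-0.01 ± 0.14, adjusted p 0.969). Xaf1, Ifi35, Slfn5, Slfn8 and Trim30a passed in cKO alone at -0.29 to -1.55. Ifi44 and Bst2, the latter encoding tetherin, passed in neither. The Trim30a call in cKO was lost without cKO control 1, cKO Pg 1 or cKO Pg 2 (adjusted p 0.0941 to 0.103).

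Per kilobase of gene length, Bst2 was the most abundant member in all 4 groups, at a mean of 145.4, 149.7, 150.7 and 137.8 CPM per kb in cHet controls, cHet Pg, cKO controls and cKO Pg, and Ifi27l2a came second. The least abundant was Herc6, at 1.28 CPM per kb in cHet controls, except in cHet Pg, where it was Ifit3b at 0.864. The median level of the 41 was 21.8, 13.1, 25.1 and 9.29 CPM per kb in the same order of groups. Bst2 and Ifi27l2a, the most abundant per length, did not fall in either genotype by the test.

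Between the genotypes, few members differed in controls and more did under Pg. In controls, Parp14 was higher in cKO (0.43 ± 0.08, adjusted p 0.00479), and no other member passed the test in either direction, where 2.13% of all genes were higher and 3.02% lower (5.15% in all). The estimates were above 0 for 36 of the 41, with a median of 0.16, and 4 members had an unadjusted p below 0.05, where 18.2% of all genes did. DESeq2 also called 1 member, where it called 4.86% of all genes. The cKO controls lay above the cHet controls without overlap for 2 members and below for 1, where 11.8% and 11.7% of all genes did so.

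Under Pg, 4 members were lower in cKO than in cHet and none was higher, where 1.20% of all genes were lower and 0.652% higher (1.85% in all). They were Mx2 (-1.36 ± 0.26, adjusted p 0.0282), Dtx3l (-0.79 ± 0.08, adjusted p 1.48e-05), Parp14 (-0.42 ± 0.08, adjusted p 0.00932) and Slfn5 (-0.37 ± 0.09, adjusted p 0.0432). Slfn5, a nuclear member of the Schlafen family, read 449.0, 477.0 and 474.8 CPM in cHet Pg and 355.3, 357.7 and 368.8 CPM in cKO Pg. The estimates were below 0 for 39 of the 41, with a median of -0.35, and 21 had an unadjusted p below 0.05, where 12.2% of all genes did. The cKO Pg libraries lay below the cHet Pg libraries without overlap for 19 members and above for 0, where 8.51% and 9.04% of all genes did so. DESeq2 called 11 members, all lower in cKO, where it called 1.91% of all genes. Averaged over both treatments, 1 member was lower in cKO, Dtx3l (-0.38 ± 0.06, adjusted p 0.000448), where 2.78% of all genes were (4.91% in either direction). That count was 3 without cHet control 2 and 4 without cKO control 1 or cKO Pg 3, all lower. Those runs called 4.01%, 4.5% and 4.19% of all genes.

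With 1 library left out, some calls under Pg were lost while the estimates moved little. Mx2 lost its call on leaving out any 1 of the 6 Pg libraries (log2 -1.45 to -1.26, adjusted p 0.0768 to 0.136). Slfn5 lost it on leaving out any 1 of 8, the 6 Pg libraries, cHet control 3 and cKO control 3 (log2 -0.40 to -0.36, adjusted p 0.0518 to 0.167). Parp14 lost it without cHet Pg 2, cKO Pg 1 or cKO Pg 2 (log2 -0.41 to -0.39, adjusted p 0.0557 to 0.0601), and Dtx3l kept it with any 1 library left out (adjusted p 1.86e-06 to 0.000302). The number of members called was 1 without cHet Pg 2, cKO Pg 1 or cKO Pg 2, 2 without cHet Pg 3, 7 without cKO Pg 3, and 9 without cHet control 1 or cKO control 1. In the same order, these runs called 1.19%, 1.32%, 1.08%, 1.29%, 1.83%, 2.03% and 2.17% of all genes, against 1.85% with every library. Stromal markers also differed by genotype. They summed to 28.7 to 36.6 CPM in the 6 cHet libraries and 2.12 to 5.16 CPM in the 6 cKO libraries, with 5 of the 6 genes counted in every library. Lyz2 stood at 19370 and 19510 CPM in cHet controls and Pg and at 9764 and 10140 CPM in cKO. Averaged over both treatments, the monocyte marker Cx3cr1 was higher in cKO (0.60 ± 0.13, adjusted p 0.0213). The B cell marker Pax5 was lower in cKO (-1.39 ± 0.34, adjusted p 0.0281). Neutrophil markers summed to 404.5 to 700.5 CPM over the 12 libraries. The part of these markers and of Lyz2 in the results was not tested.

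The interaction tests whether the Pg response itself differed between cKO and cHet. It is built from the same libraries as the genotype comparisons and is not independent of them. It was below 0 for 3 members and above 0 for none at the threshold, where 0.261% of all genes passed below and 0.457% above (0.717% in all). All 3 were the chromosome 16 genes described above. They were Parp14 (-0.85 ± 0.12, adjusted p 0.00338), Dtx3l (-0.82 ± 0.12, adjusted p 0.00367) and Parp9 (-0.59 ± 0.13, adjusted p 0.0422). The estimate was negative for 39 of the 41, all but Ifit3b and Samhd1, with a median of -0.51, and 21 had an unadjusted p below 0.05, where 12.6% of all genes did. The largest estimates belonged to Mx1 (-1.53 ± 0.48, adjusted p 0.225) and Mx2 (-1.37 ± 0.34, adjusted p 0.124), whose libraries varied more and which did not pass. For the 14 members called lower in cKO and not in cHet, only Parp14 had a response shown to differ by this test.

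Parp14 and Dtx3l kept their interaction call with any 1 library left out (adjusted p 0.000965 to 0.0192 for Parp14 and 0.00106 to 0.0192 for Dtx3l). Parp9 lost it on leaving out any 1 of 9 libraries, all but cHet control 1, cKO control 2 and cKO Pg 3 (adjusted p 0.0737 to 0.136). Leaving out cHet control 1 gave 5 members, where 0.928% of all genes were called. The other tested genes within 200 kb of the 3 were looked at after these values were seen. Dirc2, Kpna1, Hspbap1, Fam162a, Ccdc58, Wdr5b and AC129574.2 had interaction adjusted p-values of 0.149 and above. Their estimates ran from -1.10 ± 0.45 for Wdr5b (adjusted p 0.294) and -0.78 ± 0.23 for Ccdc58 (adjusted p 0.149) to 0.59 ± 0.18 for Hspbap1 (adjusted p 0.167), some of them as large as those of the 3 called genes but with wider errors.

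Much of the spread was shared by the whole set. The score of a library, the mean over the 41 genes of log2 CPM minus the gene's mean over 12 libraries, was 0.307 ± 0.253 (SD, n = 3) in cHet controls and -0.165 ± 0.224 in cHet Pg. It was 0.447 ± 0.260 in cKO controls and -0.589 ± 0.0507 in cKO Pg. By group, the 3 cKO Pg libraries lay between -0.642 and -0.540, while the others ranged over 0.409 to 0.498. The summed level of the 41 genes was 4749 ± 721.5, 4137.9 ± 258.3, 5252.2 ± 959.3 and 3251.2 ± 124 CPM in cHet controls, cHet Pg, cKO controls and cKO Pg. Control library number 1 was the highest of its group for 40 of the 41 genes in both genotypes, and control number 2 the lowest for 33 of 41 in both. In cHet Pg, library 1 was the lowest for 37. The same counts were not taken over all genes, so they are not shown to be particular to the members. The chi-square per gene was 13.6 to 14.5 for control 1 against control 2 or 3 of its genotype. It was 5.31 in cHet and 4.07 in cKO for control 2 against 3.

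Within groups the genes moved together. After subtracting group means, the median correlation between 2 members over the 12 libraries was 0.749, and 95.5% of pairs were above 0. These libraries share depth and scaling, the correlation was not taken over all genes, and the value is a description. Of the 41, 28 correlated above 0.8 with the mean of the others, Ifit2 most closely (0.988). Trim25 went its own way (-0.192), and Parp9, Dtx3l, Sp100 and Ifi27l2a followed weakly (0.281, 0.340, 0.350 and 0.390). The median within-group SD of log2 CPM was 0.205 for the members and 0.168 for all tested genes.

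**Figure D4:**
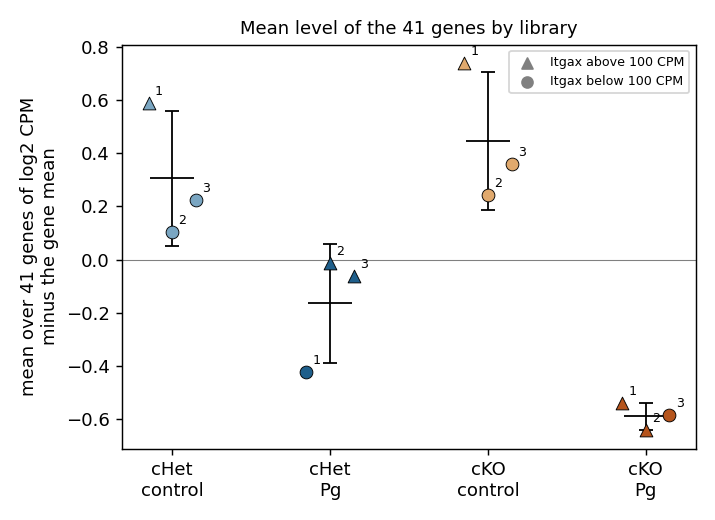
Mean over the 41 genes of log2 CPM minus the gene mean, for each library, with the mean and SD of each group. Numbers are the library numbers, and triangles are the 6 libraries with Itgax above 100 CPM. The cKO Pg libraries lie between -0.642 and -0.540, and number 1 is the highest control in both genotypes.

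The position of a library within its group moved with its Itgax level in the controls and in cHet Pg. Within the 6 libraries with high Itgax, the score after Pg minus that of controls was -0.627 in cHet and -1.33 in cKO, from 1 control and 2 Pg libraries of each genotype. Within the 6 with low Itgax it was -0.586 in cHet and -0.886 in cKO, from 2 controls and 1 Pg library of each. Each difference has an arm of 1 library and no test. With a term for the 2 sets in the fit, chosen after seeing the data, 27 members were lower and 3 higher after Pg in cHet, and 36 lower and 1 higher in cKO. In the same fit 7 were higher in cKO controls than in cHet controls, 19 were lower in cKO under Pg, and the interaction was negative for 18. The term also raised the share called over all genes, to 42.1% and 40.7% for Pg in cHet and cKO, 12.5% between controls, 6.13% under Pg and 5.69% for the interaction. Leaving out both number 1 controls, also chosen after seeing the data, gave 16 lower and 3 higher in cHet, 29 lower and 1 higher in cKO, 14 lower in cKO under Pg and 9 negative interactions, where 34.9%, 33.2%, 2.66% and 0.906% of all genes were called. Parp9, Parp14 and Dtx3l were among the interaction calls in both. The set of conventional dendritic cell markers, Itgax included, summed to 41.4 to 149 CPM over the 12 libraries. Plasmacytoid dendritic cell markers, a known source of type I interferon, summed to 77.2 to 123 CPM. Nearly all of that was Tcf4, at 69.9 to 108.4 CPM, which other cells express too, so the sum does not measure these cells. Siglech lay at 1.28 to 5.92 CPM and Klk1 at 0 in 8 libraries. Ccr9 of the same list rose after Pg in both genotypes (2.04 ± 0.48, adjusted p 0.00298, and 1.67 ± 0.44, adjusted p 0.00722). Tcf4 rose in cKO alone (0.35 ± 0.09, adjusted p 0.00525). The part of these dendritic cell markers in the results was not tested.

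Upstream of the members, of 21 interferon ligand genes 17 had no count in any library, and Ifnb1, encoding interferon beta, was the one that passed the filter. Ifnb1 had 2, 3 and 3 counts in cHet controls and 3, 15 and 15 after Pg. In cKO it had 7, 3 and 6 counts in controls and 12, 10 and 3 after Pg. With the correction for composition, the cHet controls lay at 0.111 to 0.187 CPM and the cHet Pg libraries at 0.211 to 1.06 CPM, while the cKO libraries overlapped. The gap in cHet rests on that correction. Both cHet control 3 and cHet Pg 1 had 3 counts, and their totals were 14730553 and 15718478. The estimate was 2.22 ± 0.68 (adjusted p 0.0166) in cHet and 0.83 ± 0.63 (adjusted p 0.343) in cKO, on at most 15 counts in any library, and the difference did not pass (interaction adjusted p 0.604). The other 3 ligands with a count, Ifna7, Ifnk and Ifng, had at most 6 in a library.

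The counts of pathway genes that follow stand beside 18.0% of all genes higher and 18.0% lower in cHet, and 16.9% higher and 17.1% lower in cKO. Of 5 interferon receptor genes, 2 rose in cHet, and 1 rose and 2 fell in cKO. Ifnar2 rose in both (0.55 ± 0.06, adjusted p 1.76e-06, and 0.47 ± 0.06, adjusted p 9.49e-06), and Ifnar1 in cHet (0.19 ± 0.06, adjusted p 0.0236, against 0.05 ± 0.06 and 0.595 in cKO). Irf9, which encodes the DNA-binding partner of Stat2 in ISGF3, fell in both, by -0.40 ± 0.10 (adjusted p 0.00554) and -0.76 ± 0.10 (adjusted p 2.67e-05). Jak2 and Stat3, which serve other cytokines, rose in both, Jak2 by 1.64 ± 0.16 and 1.11 ± 0.16 and Stat3 by 0.50 ± 0.09 and 0.53 ± 0.09. Of the other JAK family genes listed, Tyk2 fell in cHet (-0.23 ± 0.07, adjusted p 0.0194, against -0.14 ± 0.07 and 0.1435 in cKO). Jak1 rose in cKO (0.17 ± 0.06, adjusted p 0.0280, against 0.11 ± 0.06 and 0.147 in cHet).

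Of 18 genes that lead to interferon induction, 6 rose and 3 fell in cHet, and 6 rose and 1 fell in cKO. Ticam1, the adaptor of TLR3 and TLR4 on the route to interferon, rose by 1.23 and 1.56. Irf7, the factor that amplifies interferon alpha production, did not pass (-0.18 ± 0.32 and -0.69 ± 0.32). Irf1 read 757.1, 693.7 and 766.6 CPM in cHet controls and 496.2, 413.8 and 392.4 CPM in cKO controls. After Pg it read 844.8, 942.3 and 1004 CPM in cHet and 875.9, 830.3 and 781.4 CPM in cKO. It was lower in cKO controls (-0.77 ± 0.09, adjusted p 2.75e-05) and rose more in cKO (interaction 0.60 ± 0.12, adjusted p 0.0267), a direction opposite to that of 39 of the 41 members. Tlr7 was higher in cKO in controls (1.02 ± 0.08) and under Pg (1.14 ± 0.08).

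Of 9 negative regulators, 2 rose and 2 fell in cHet and 4 rose and 2 fell in cKO, Usp18 being both a member and 1 of the 9, so that the cHet counts are near the share of all genes. Socs3 and Socs1, inhibitors of cytokine receptor kinases, rose in both genotypes. Socs3 rose by 2.69 ± 0.12 and 3.01 ± 0.12, and Socs1 by 1.53 ± 0.20 and 0.62 ± 0.21 (adjusted p 6.70e-05 and 0.0343, interaction adjusted p 0.194). Interferon-inducible chemokine genes fell or did not pass, with 2 of 5 lower in cHet and 3 of 5 in cKO. Cxcl10, which draws T cells, fell by -1.80 ± 0.30 (adjusted p 0.00150) and -1.92 ± 0.30 (adjusted p 0.00114).

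The interferon-inducible GTPases of the IRG and GBP families act on vacuoles that hold bacteria and parasites and answer mostly to interferon gamma. Of 17 listed, 14 were tested. In cHet 6 fell and 1 rose, Gbp5, and in cKO 12 fell and none rose, with medians of -0.39 and -1.06. Irgm2 was lower after Pg by -0.91 in cHet and -2.38 in cKO. It was the only 1 of the 14 that passed the interaction test (-1.47, adjusted p 0.00625). Under Pg it was lower in cKO than in cHet (-0.82, adjusted p 0.0108), as was Gbp5 (-0.54, adjusted p 0.00203). The falls after Pg were therefore measured in GTPases outside the 41 as well.

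**Figure D5:**
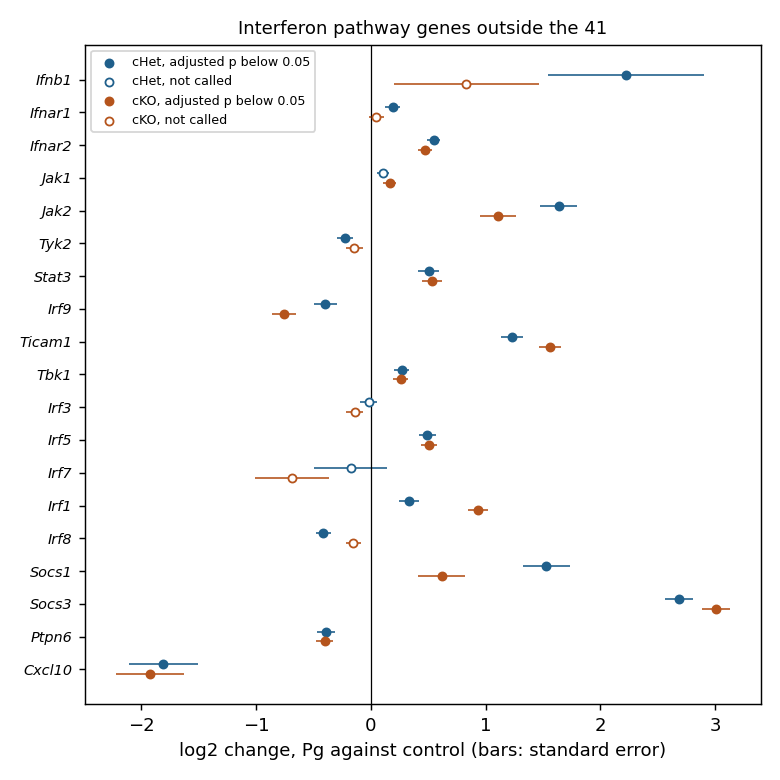
Log2 change after Pg with its standard error for 19 interferon pathway genes outside the 41, in cHet (blue) and cKO (orange), with filled points for an adjusted p below 0.05. Irf9 and Cxcl10 lie left of 0 and Socs3, Socs1, Jak2 and Ticam1 right of it.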

How the data were processed

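Raw read counts per gene, as deposited by the authors in one table of 12 libraries, were used. The tools listed in the submitters' processing notes are featureCounts 1.5.0-p3, HISAT2 2.0.5 and fastp, with mm10 as the build. Strandedness, multiple mapping and gene models: not given in the sources used here.

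Counts were tested in R 4.3.3 with edgeR 4.0.16 (filterByExpr, TMM scaling, robust quasi-likelihood F test, a means model of 4 groups over all 12 libraries), and p-values were adjusted by Benjamini-Hochberg over 13800 genes for each of 6 comparisons. Every adjusted p comes from this test unless another tool is named. A standard error is the log2 change over the square root of F. CPM are counts divided by TMM-scaled library sizes, and log2 CPM used a prior count of 2.

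The members and lists were chosen with earlier results of these data known. Per-library values are given for members with the smallest p (top 6 per Pg comparison, top 3 for the mean genotype difference and the interaction) and the highest and lowest Pg changes, and other members by range and count. Pathway genes are named where called, at most 4 per list by p, with a few always named. One pathway gene is not reported here. Slfn5 and some other examples were named after their values were seen. No library repeated another of its group, since the chi-square between them was 2.59 to 17.2 per gene. Alternatives were another scaling, DESeq2 1.42.0, other filters, a replicate block, the compared groups alone, and each library left out.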

Additional observations from a re-analysis of the deposited data

Results flagged for a closer look

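The Pg response differed between the genotypes for 3 neighbouring genes on chromosome 16, by the interaction test of edgeR. The response in cKO minus that in cHet was -0.59 for Parp9, -0.85 for Parp14 and -0.82 for Dtx3l on the log2 scale. Parp9 and Dtx3l fell in both genotypes and fell further in cKO, while the Parp14 change in cHet did not pass the test. Groups of 3 libraries are too small for a test of single outlying libraries.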

How the results depend on the processing

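No member call given above reversed its direction under any alternative. Members that did not pass the test were not checked for this. With any 1 library left out, the number of members called was 15 to 22 after Pg in cHet, 30 to 33 after Pg in cKO, 1 to 1 between controls, 1 to 9 between genotypes under Pg, 1 to 4 for the mean genotype difference and 2 to 5 for the interaction. The shares of all genes called ran over 29.1% to 36.1%, 27.2% to 34%, 2.26% to 5.86%, 1.08% to 2.17%, 3.54% to 5.06% and 0.298% to 1.47%. Library size alone gave 32 after Pg in cHet, 7 under Pg and 2 for the mean difference, where it called 48.7%, 1.91% and 5.03% of all genes. DESeq2 gave 11 under Pg, 3 for the mean difference and 9 for the interaction, where it called 1.91%, 4.52% and 2.52% of all genes, against 1.85%, 4.91% and 0.717% by edgeR. No filter on low counts gave 6 between controls, 13 under Pg, 5 for the mean difference and 12 for the interaction. It called 4.02%, 1.85%, 4.02% and 1.42% of all genes in these. A mean log2 CPM of at least 1 gave 2 for the mean difference, where 4.46% of all genes were called. The compared groups alone gave 2 between controls and 10 under Pg, where 4.71% and 1.72% of all genes were called. The term for Itgax gave 30 in cHet, 7 between controls, 19 under Pg, 6 for the mean difference and 18 for the interaction, where it called 42.1%, 12.5%, 6.13%, 11.1% and 5.69% of all genes, against 36.1%, 5.15%, 1.85%, 4.91% and 0.717% without it. Leaving out both number 1 controls gave 14, 4 and 9 for the last 3, where 2.66%, 4.13% and 0.906% of all genes were called. The cause of these moves was not tested. The counts after Pg in cHet, between controls and for the mean difference thus changed by more than 1.5 times in at least 1 alternative. Those under Pg and for the interaction did so with tool, filter and library. Both counts rose in some alternatives, and the count under Pg also fell with some libraries left out. The members called there were always lower in cKO or had a negative interaction. The genotype calls of Dtx3l and Parp14 in the interaction passed in every alternative run.

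The replicate numbers are shared by the groups. Over all genes, same-numbered libraries of different groups correlated at -0.291 to 0.319, with 5 of 18 above 0.1, so the numbers were not taken as pairs. Over the members the controls did go together by number, with mean deviations from the group of 0.284, -0.202 and -0.0826 in cHet and 0.293, -0.205 and -0.0875 in cKO. With a replicate block 18 members were called after Pg in cHet, 31 in cKO, 1 between controls, 4 under Pg, 2 for the mean difference and 3 for the interaction. The matching shares of all genes were 34.2%, 32.2%, 3.98%, 1.59%, 4.21% and 0.507%.

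Of single calls, 206 of 228 after Pg in cHet and 374 of 384 in cKO held with a library left out, against 31 of 48 under Pg and 27 of 36 for the interaction. Genes with few counts, such as Ifnb1, have wide errors.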
